A study of Homo sapiens with 4 samples.

Results

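The Notch genes measured here were the receptors NOTCH1, NOTCH2 and NOTCH3, the ligands JAG1, JAG2 and DLL1, the nuclear factors RBPJ and MAML1, and the target genes HES1 and HEY1. They were taken by gene name from a list that was chosen with earlier results of these data known. All 10 were found among the 58735 genes of the deposited tables. RNA-seq had been performed on HaCaT, an established and immortalised line of human keratinocytes, with 2 libraries per group. The siControl cells were labelled wild type and received a normal control siRNA, and the siALKBH5 cells received siRNA against ALKBH5, which encodes an enzyme that removes the N6-methyladenosine (m6A) mark from RNA. Both groups were transfected with lipofectamine at 200 pmol of siRNA in six-well plates. Which ALKBH5 siRNA was used and the time between transfection and RNA extraction are not given in the sources used here, nor is it stated whether the libraries of a group came from separate cultures, so the p-values measure the spread between these libraries only.

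Notch signalling passes between neighbouring cells. A Jagged or Delta-like ligand on one cell binds a Notch receptor on the next, an ADAM protease and then gamma-secretase cut the receptor, and its freed intracellular part enters the nucleus, where it joins the DNA-binding protein RBPJ and a Mastermind-like coactivator and switches on genes such as HES1. In the epidermis the pathway is known for its part in the step from basal to suprabasal keratinocytes.

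RBPJ binds DNA at sites that hold the letters TGGGAA, so the promoter windows of the list were searched for these letters on both strands. The windows are those of RefSeq on GRCh38.p14 and run from 250 bases before to 50 bases after an annotated start. Of the 10 genes, 8 had a window, and DLL1 and HEY1 had none in the table. The letters were present in the window of HES1 and in 1 of the 5 windows of RBPJ, and they were not found in those of NOTCH1, NOTCH2, NOTCH3, JAG1, JAG2 and MAML1. Among all 35116 windows, 24.0% held the letters and 3.8% held them at least 2 times. The stretches below are shown because HES1 is the target gene of the list that changed, HES4 and HES5 are its relatives and RBPJ is the factor itself. HEY2 and HEYL windows also held the letters, at bases -213 and -3 and at bases -178 and -99, and those of HES2, HES6, HES7 and NRARP did not. Each stretch is 30 bases long and is written 5′ to 3′ on the strand of its gene, with the searched letters in capitals.
HES1: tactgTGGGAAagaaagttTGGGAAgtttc
HES4: ctggggcgagtgTGGGAAagaatgcggagc
HES5: ggccgcggagtgTGGGAAcggccgcggcgc
RBPJ: agtggaaggcggTGGGAAggaggtgtagcg
The HES1 stretch lies at chr3:194136059-194136088 on the plus strand, and its copies begin at bases -84 and -70 from the start. The HES4 stretch lies at chr1:1000156-1000185 on the minus strand, with the letters at base -76. The HES5 stretch lies at chr1:2530326-2530355 on the minus strand, with the letters at base -80, and the reverse letters occur again at base -224. The RBPJ stretch lies at chr4:26319662-26319691 on the plus strand, with the letters at base -72 from the start of that window, and the reverse letters occur at base -115. A match of letters is a description of the sequence and does not show that RBPJ was bound there in these cells.

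The libraries held between 16017502 and 18837807 counts on genes. ALKBH5 (ENSG00000091542) had 1512 and 1576 counts in siControl replicates 1 and 2 and 956 and 816 counts in siALKBH5 replicates 1 and 2, and its log2 fold change was -0.85 (standard error, SE, 0.05; edgeR adjusted p = 6.4e-15, quasi-likelihood model). Libraries of a group differed by more than sampling noise, with a chi-square per degree of freedom of 1.75 in siControl and 1.86 in siALKBH5. All 10 keratinocyte markers examined were detected, and their summed level was between 19189 and 19578 CPM in siControl and between 25221 and 25295 CPM in siALKBH5, and edgeR called 5 of the 10 higher and 3 lower. Most of this difference lay in KRT5, with 7034 CPM on average in siControl and 11248 in siALKBH5, followed by KRT14 with 5621 and 6553 CPM. Of 22 markers of other cell types, 11 had at most 3 counts in every library, among them COL1A2, PDGFRA, PDGFRB, PECAM1, KDR, PTPRC, LYZ and TYR. Other markers of fibroblasts, endothelium and melanocytes were detected in every library. COL1A1 had 267 to 310 counts, VWF 293 to 501, CDH5 147 to 237 and MITF 163 to 198. DCN, LUM, PMEL and the immune marker CD14 had between 15 and 74 counts. The summed fibroblast markers were between 21.9 and 22.8 CPM in siControl and between 18.7 and 19.1 CPM in siALKBH5, with 2 of the 7 lower, and the summed endothelial markers were between 32.5 and 32.6 CPM and between 35.0 and 35.5 CPM, with 1 of the 5 higher and 1 lower. The summed immune markers were between 2.54 and 3.17 CPM and between 3.95 and 4.28 CPM, with 1 of the 5 higher, and the melanocyte markers between 13.7 and 14.1 CPM and between 11.9 and 14.2 CPM, with 0 of the 5 called. The part of these shifts in the results below was not tested.

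The levels of the Notch genes in HaCaT cells were first compared per length, as FPKM, the counts scaled by the listed gene length and by the library total. HES1, a repressor of transcription and the best-known Notch target, was the most abundant of the 10, at 57.7 ± 3.59 FPKM (SD, n = 2) in siControl. The ligands JAG2 and JAG1 stood at 40.1 ± 0.225 and 23.1 ± 0.125 FPKM (SD, n = 2), and the receptor NOTCH1 lay between them at 33.2 ± 1.17 FPKM (SD, n = 2). NOTCH3, MAML1 and DLL1 followed at 13.9, 11.3 and 7.90 FPKM. NOTCH2 at 4.91, HEY1 at 2.89 and RBPJ at 2.09 FPKM were the least abundant. The RBPJ pseudogenes RBPJP2, RBPJP5, RBPJP6 and RBPJP7 had 0 counts in every library. How reads that match more than 1 place were counted is not given in the sources used here, so the level of RBPJ may be too low. The listed length of RBPJ, 9253 bases, covers 22 coding transcripts in GENCODE 29, so its level per length depends on that choice. The same holds for NOTCH2, with 16807 bases listed against 10377 for NOTCH1. Before division by length, NOTCH2 had a siControl mean of 82.1 CPM and DLL1 of 25.3. The order, and the receptor and ligand shares below, therefore depend on the listed lengths. The order of the 10 genes was the same in siALKBH5, and in both groups the libraries of neighbouring genes in this order did not overlap.

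**Figure D1:**
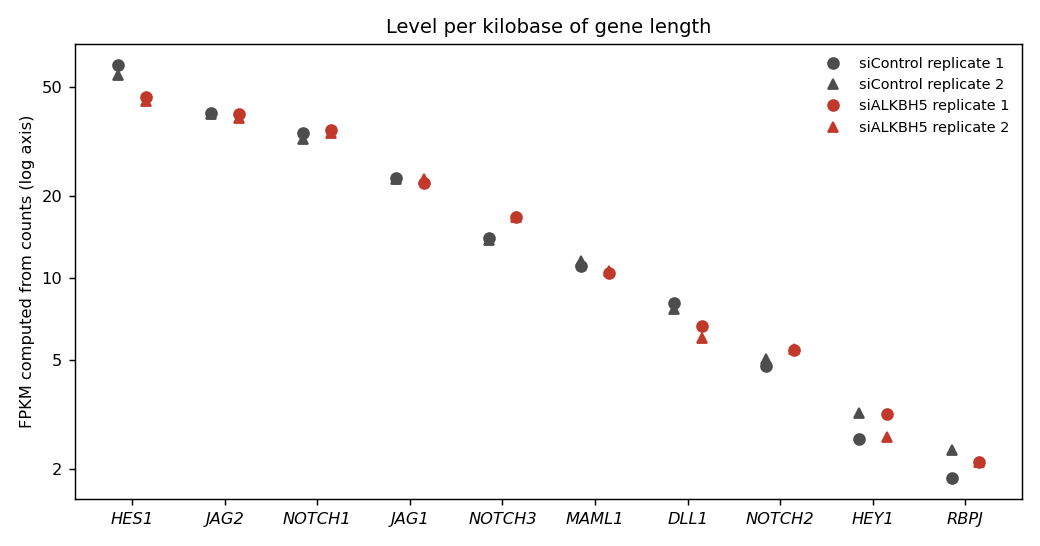
FPKM of the 10 Notch genes computed from the raw counts, on a log axis, with 1 point per library and the genes in the order of their siControl mean. HES1 was highest, at 57.7 FPKM in siControl and 45.1 in siALKBH5, and RBPJ lowest, at 2.09 and 2.12.

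Of the receptor FPKM summed over NOTCH1, NOTCH2, NOTCH3 and NOTCH4, NOTCH1 made up 64.4% and 63.2% in siControl and 61.0% and 60.5% in siALKBH5. NOTCH3 made up 26.5% and 26.9% in siControl and 29.3% and 29.7% in siALKBH5. The receptor pool was therefore mostly NOTCH1 in all 4 libraries, with a larger part of NOTCH3 in both siALKBH5 libraries. NOTCH4 had 2 and 0 counts under siControl against 2 and 2 under siALKBH5, which is at or under the floor of 3 counts. Of the ligands, DLL3 had 0 counts in every library, which allows up to 0.187 CPM in the smallest library and covers counting error only, and DLL4 had 2 and 1 counts under siControl against 6 and 0 under siALKBH5. JAG2 made up 56.2% and 56.5% of the summed ligand FPKM in siControl and 57.9% and 56.9% in siALKBH5. DLL1 made up 11.3% and 10.9% in siControl and 9.69% and 8.93% in siALKBH5. JAG2 shares 16631 bases of its span with AL512356.1 on the same strand, which had 0 counts in every library. How reads of both were counted is not given in the sources used here, so the level of JAG2 and the ligand shares are uncertain.

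After ALKBH5 knockdown, the 3 receptors were higher, the Delta-like ligand DLL1 and the target HES1 were lower, and the Jagged ligands, RBPJ, MAML1 and HEY1 did not pass the test. The changes were small, from -0.33 for HES1 to 0.28 for NOTCH3 on the log2 scale. The groups were compared with edgeR's quasi-likelihood test, two-sided, on the counts of all genes, with TMM scaling and Benjamini-Hochberg adjustment over the 15075 genes that passed the expression filter, and CPM below stands for counts relative to the TMM-adjusted library total. All 10 genes passed the filter. At an adjusted p under 0.05, 3 of them were higher and 2 were lower, beside 19.3% of all genes tested that were higher and 17.3% that were lower, or 36.6% in either direction. With the minimum size that the study set, a log2 change of 1 up or down, 0 of the 10 were called by edgeR and 2.92% of all genes were. At an unadjusted p under 0.05, 5 were called by edgeR, and DESeq2 called 3 at an adjusted p under 0.05. The share of all genes under either criterion is not given here, so these counts describe the 10 genes only. The median log2 fold change of the 10 genes was 0.012, and that of all genes tested was -0.0081. The CPM of the groups did not overlap for 6 of the 10 genes, beside 66.3% of all genes tested. These numbers were not set against each other by a test, and the values below describe the single genes. In bulk RNA, fewer cells of a type and less RNA per cell cannot be told apart.

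**Figure D2:**
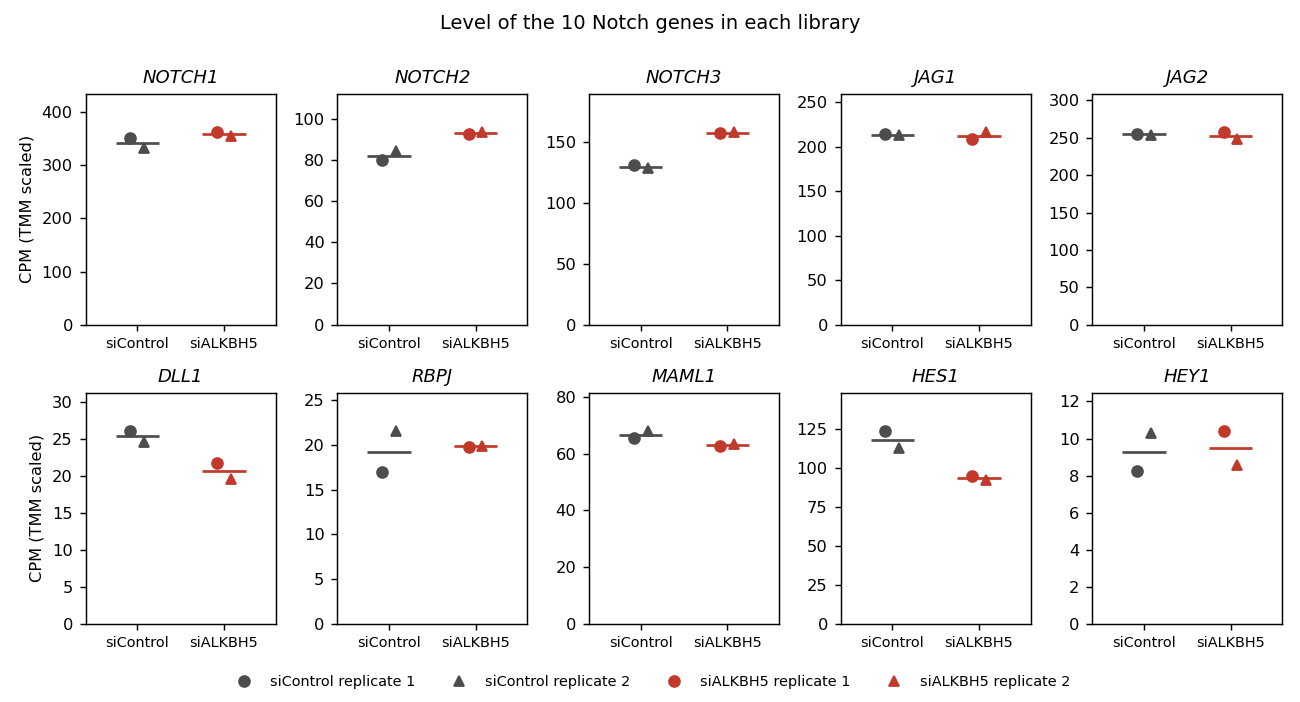
CPM of each Notch gene in the 4 libraries, with circles for replicate 1, triangles for replicate 2 and a bar at the mean of each group, on axes that start at 0. Both siALKBH5 libraries lie above both siControl libraries for NOTCH1, NOTCH2 and NOTCH3 and below them for DLL1, MAML1 and HES1.

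NOTCH3 had the largest rise. It encodes a receptor with a shorter extracellular part than NOTCH1 and lies on the minus strand of chromosome 19 of GRCh38 from 15159038 to 15200981 (ENSG00000074181). Its level was 130.9 and 128.6 CPM in siControl replicates 1 and 2 and 157.6 and 158.1 CPM in siALKBH5 replicates 1 and 2. The groups did not overlap, and replicates lay much closer to each other than the group means did. The log2 fold change was 0.28 (SE 0.04, edgeR adjusted p = 1.5e-07), or 121.7% of the control level. Between same-numbered libraries, whose number was not taken as a pairing, the log2 ratio was 0.27 for replicate 1 and 0.30 for replicate 2.

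NOTCH2, a receptor on the minus strand of chromosome 1 from 119911553 to 120069626 (ENSG00000134250), moved in the same direction. It had 79.8 and 84.4 CPM in siControl and 92.6 and 93.5 CPM in siALKBH5. Both siALKBH5 libraries were above both siControl libraries, and the log2 fold change was 0.18 (SE 0.05, edgeR adjusted p = 0.0022). A gene with a partial copy of NOTCH2, NOTCH2NLA, had 16 and 13 counts under siControl and 13 and 4 under siALKBH5, compared with 1285 to 1729 counts of NOTCH2, so reads that the counting may have split between them are uncertain.

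NOTCH1, the main receptor of these cells by level, lies on the minus strand of chromosome 9 from 136494433 to 136545786 (ENSG00000148400) and had the smallest of the 3 rises. Its level was 350.8 and 333.6 CPM in siControl and 362.4 and 355.5 CPM in siALKBH5. The log2 fold change was 0.07 (95% confidence interval 0.013 to 0.13, edgeR adjusted p = 0.049), which is at the edge of the threshold. The call was lost without siControl replicate 2 (log2 fold change 0.033, adjusted p = 0.54) and without siALKBH5 replicate 1 (0.058, adjusted p = 0.21), and also with DESeq2 (adjusted p = 0.12) and with library size only (adjusted p = 0.19).

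The receptors were also set against each other within each library, where scaling between libraries has no part. These ratios come from the same counts and are no further support for an unequal change. The ratio of NOTCH3 to NOTCH1, per kilobase, was 0.412 and 0.426 in siControl and 0.481 and 0.491 in siALKBH5. The ratio of NOTCH2 to NOTCH1 was 0.140 and 0.156 in siControl and 0.158 and 0.162 in siALKBH5. Both siALKBH5 libraries were higher for both ratios, by a clear distance for NOTCH3 and by a narrow one for NOTCH2. With 2 libraries against 2, an exact two-sided permutation test cannot give a p below 0.333, so no test was made of these ratios.

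**Figure D3:**
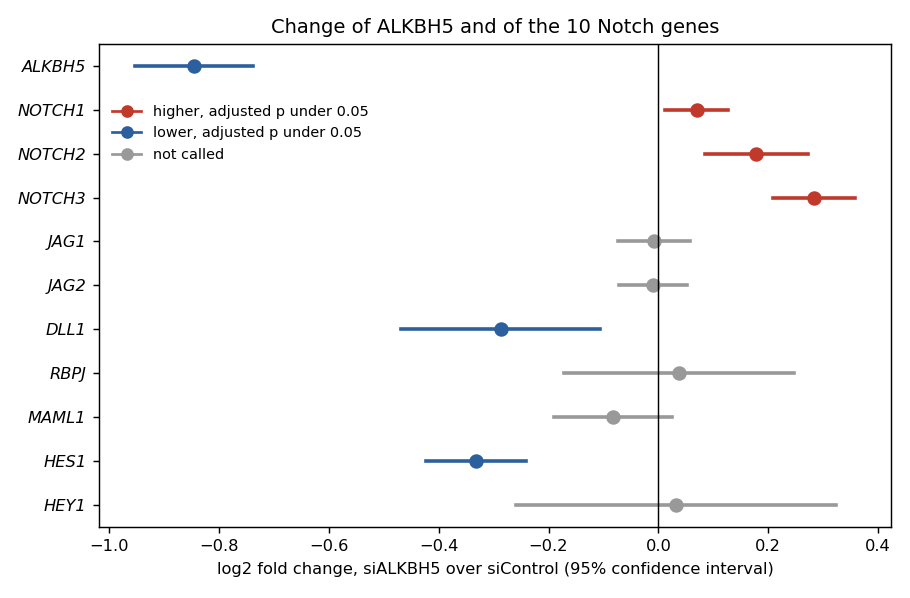
Log2 fold change of ALKBH5 and the 10 Notch genes in siALKBH5 relative to siControl. Bars are 95% confidence intervals derived from edgeR's quasi-likelihood F statistic. NOTCH3, NOTCH2 and NOTCH1 lie above 0 at 0.28, 0.18 and 0.07, DLL1 and HES1 lie below 0 at -0.29 and -0.33, and the intervals of the other 5 Notch genes include 0.

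JAG1 and JAG2, the Jagged ligands, were not called, and DLL1, a Delta-like ligand, was lower. Whether the ligands differ from each other in their change was not tested. JAG1 (ENSG00000101384, chromosome 20 from 10637684 to 10673999, minus strand) had 214.6 and 212.9 CPM in siControl and 208.9 and 216.3 CPM in siALKBH5. JAG2 (ENSG00000184916, chromosome 14 from 105140981 to 105168824, minus strand) had 255.7 and 253.6 CPM in siControl and 257.5 and 248.0 CPM in siALKBH5. The groups overlapped for both genes. Their log2 fold changes were -0.0083 and -0.010, with 95% confidence intervals from -0.073 to 0.057 and from -0.071 to 0.051, so a change of either by more than these bounds was not seen in these libraries.

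DLL1 (ENSG00000198719) lies on the minus strand of chromosome 6 from 170282206 to 170306565. Its level was 26.0 and 24.6 CPM in siControl replicates 1 and 2 and 21.7 and 19.6 CPM in siALKBH5 replicates 1 and 2. The values did not overlap, and siALKBH5 was at 81.7% of the control level on average. The log2 fold change was -0.29 (SE 0.09, edgeR adjusted p = 0.011), on 323 to 443 counts per library. The call was lost without siControl replicate 1 (-0.25, adjusted p = 0.094), without siALKBH5 replicate 2 (-0.22, adjusted p = 0.12) and with DESeq2 (-0.28, adjusted p = 0.079). The gene shares 15863 bases of its span with FAM120B on the opposite strand, which had 578 and 617 counts under siControl against 614 and 562 under siALKBH5 and a log2 fold change of -0.066 (adjusted p = 0.52 by edgeR). Whether the counting used strand is not given in the sources used here, so reads of the shared span cannot be told apart. The ratio of DLL1 to JAG2, per kilobase, was 0.202 and 0.193 in siControl and 0.167 and 0.157 in siALKBH5.

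In the nucleus, the DNA-binding factor RBPJ (ENSG00000168214, chromosome 4 from 26163455 to 26435131, plus strand) had 17.0 and 21.5 CPM in siControl and 19.8 and 19.9 CPM in siALKBH5. The siALKBH5 libraries lay between the siControl libraries, whose distance from each other was larger than that between the groups. The log2 fold change was 0.037, with a 95% confidence interval from -0.17 to 0.25. The coactivator MAML1 (ENSG00000161021, chromosome 5 from 179732850 to 179777286, plus strand) had 65.5 and 67.8 CPM in siControl and 62.6 and 63.3 CPM in siALKBH5. Its groups did not overlap, but the log2 fold change of -0.083 did not pass the test (95% confidence interval -0.19 to 0.024, edgeR adjusted p = 0.23).

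HES1 had the largest fall. The gene (ENSG00000114315) lies on the plus strand of chromosome 3 from 194136145 to 194138732 and has 4 exons, and its promoter stretch with both copies of TGGGAA is printed above. It had 1991 and 2035 counts under siControl against 1778 and 1523 under siALKBH5. These correspond to 123.6 and 113.1 CPM in siControl replicates 1 and 2 and to 95.2 and 92.5 CPM in siALKBH5 replicates 1 and 2. The lower siControl library was still above the higher siALKBH5 library, and the mean of siALKBH5 was 79.3% of that of siControl. The log2 fold change was -0.33 (SE 0.04, edgeR adjusted p = 3.1e-07). Same-numbered libraries, not taken as pairs, had log2 ratios of -0.38 for replicate 1 and -0.29 for replicate 2.

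The level of HES1 was also set against that of the receptors in the same library. Since NOTCH1 and NOTCH3 were themselves higher, these ratios combine both changes and are no further support for the fall of HES1. The ratio of HES1 to NOTCH1, per kilobase, was 1.77 and 1.71 in siControl and 1.32 and 1.31 in siALKBH5. The ratio of HES1 to NOTCH3 was 4.30 and 4.01 in siControl and 2.75 and 2.67 in siALKBH5. The libraries of a group lay close together and the groups did not overlap for either ratio.

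HEY1, the other target of the list, is a repressor related to HES1 and lies on the minus strand of chromosome 8 from 79764010 to 79767863 (ENSG00000164683). It had 8.25 and 10.3 CPM in siControl replicates 1 and 2 and 10.4 and 8.57 CPM in siALKBH5 replicates 1 and 2. The groups overlapped. The log2 ratios of same-numbered libraries were 0.33 and -0.26, but the number was not taken as a pairing. The log2 fold change was 0.032, with a 95% confidence interval from -0.26 to 0.32. The lower bound lay above the estimate for HES1, -0.33, but the difference between the genes was not tested. HEY1 had 133 to 194 counts per library, and a change within this interval was not excluded by these libraries.

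**Figure D4:**
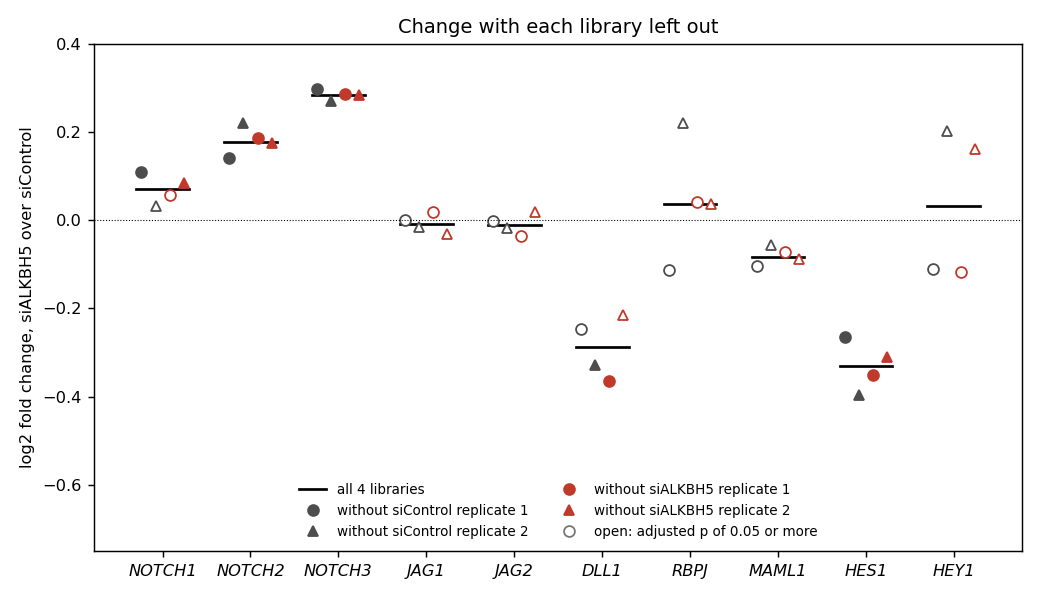
Log2 fold change of the 10 Notch genes with all 4 libraries (black line) and after removal of 1 library at a time (points), filled where the adjusted p of edgeR was under 0.05. NOTCH2, NOTCH3 and HES1 were called with every library left out, NOTCH1 and DLL1 were each lost without 2 of the libraries, and JAG1, JAG2, RBPJ and HEY1, which were not called, changed sign.

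The wider pathway was then examined with a list of 68 other genes, of which 61 passed the expression filter. At an adjusted p under 0.05, 15 of these were higher and 18 were lower, and 0 reached a log2 fold change of 1 in size by edgeR. The share called was 54.1%, beside the 36.6% of all genes. Their median log2 fold change was -0.052, and 78.7% did not overlap between groups, beside 66.3% of all genes. These genes were not matched to all genes by level, so the shares describe the list only. Of the genes named below, those without a name in the plot of the pathway genes, other than NOTCH, DLL, HES and HEY genes, fell outside the rule for naming genes and were named after their values were seen.

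**Figure D5:**
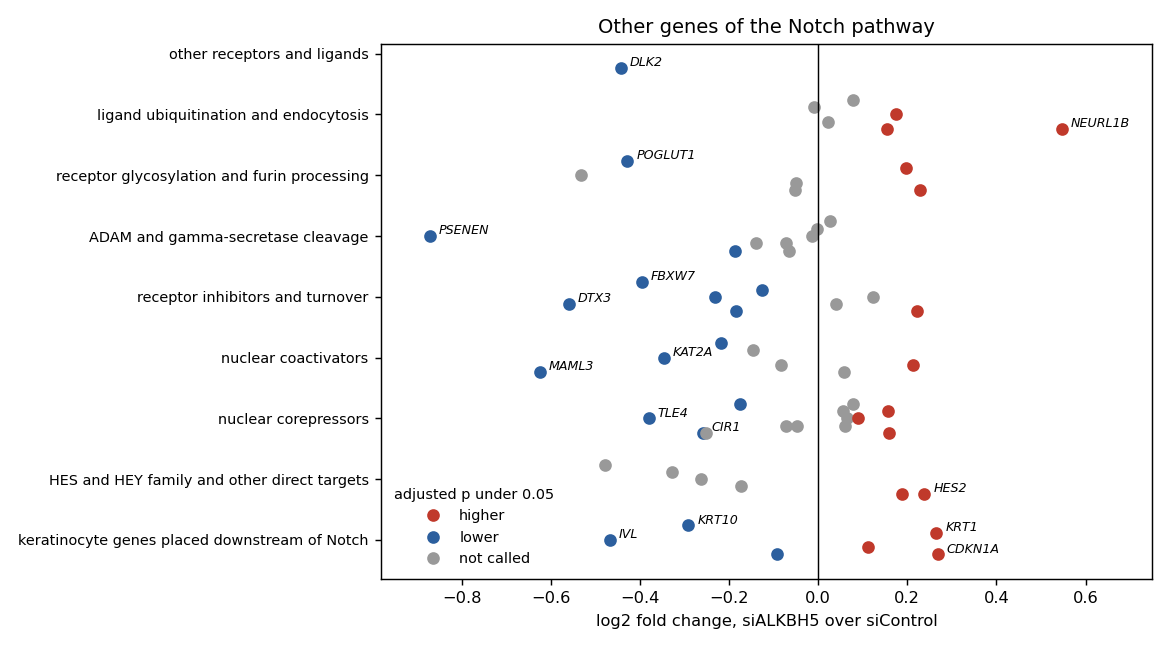
Log2 fold change of the 61 tested pathway genes by group, with 1 point per gene, coloured by direction where the adjusted p of edgeR was under 0.05, and names for the 15 called genes with the largest change. PSENEN at -0.87 and NEURL1B at 0.55 mark the ends of the range.

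Of 6 genes for ubiquitination and endocytosis of ligands in the sending cell, 3 were higher and 0 lower by edgeR, beside 19.3% of all genes tested that were higher and 17.3% that were lower. No direction of the group was tested, here or for the groups that follow. NEURL1B, a ubiquitin ligase of the Neuralized family, had 131 and 147 counts under siControl against 216 and 202 under siALKBH5, for a log2 fold change of 0.55 (SE 0.13, edgeR adjusted p = 0.0012). NEURL1B overlaps the pseudogene AC027309.2 on the opposite strand, which had 19 to 46 counts and a log2 fold change of 0.63 (edgeR adjusted p = 0.14), so part of its reads is uncertain. The ubiquitin ligase MIB1 rose by 0.18 on the log2 scale and the endocytic adaptor EPN1 by 0.15. Of 5 other receptors and ligands, a separate group, 1 was tested, and it was lower, beside 17.3% of all genes tested. This was DLK2, which resembles Delta ligands without being a classical activator. It had 670 and 732 counts under siControl against 545 and 517 under siALKBH5, a log2 fold change of -0.44 (SE 0.07, edgeR adjusted p = 7.1e-06). DLK2 shares 79 bases of its span with ABCC10 on the opposite strand, which had 661 to 784 counts, so reads of the shared bases are uncertain.

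Of 6 genes that modify the receptor on its way to the surface, 2 were higher and 1 was lower, beside 19.3% and 17.3% of all genes tested. The fucosyltransferase POFUT1 rose by 0.20 on the log2 scale and the protease FURIN, which makes the first cut of the receptor, by 0.23. The glucosyltransferase POGLUT1 had 283 and 410 counts under siControl against 308 and 222 under siALKBH5. Its log2 fold change was -0.43 (SE 0.12, edgeR adjusted p = 0.0037), and it was -0.22 without siControl replicate 2 (adjusted p = 0.23), so this library decided the call. The Fringe gene MFNG had a log2 fold change of -0.53 that did not pass the test (adjusted p = 0.062 by edgeR).

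Of 8 genes of the ADAM and gamma-secretase step, 2 were lower and 0 higher, beside 17.3% and 19.3% of all genes tested. PSENEN, which encodes the PEN-2 subunit of gamma-secretase, had 69 and 97 counts under siControl against 46 and 47 under siALKBH5, a log2 fold change of -0.87 (SE 0.22, edgeR adjusted p = 0.0022). With 1 library left out it ranged from -1.02 without siControl replicate 1 (edgeR adjusted p = 0.00082) to -0.69 without siControl replicate 2 (edgeR adjusted p = 0.061), where the call was lost. PSENEN shares 332 bases of its span with U2AF1L4 on the opposite strand, whose counts were between 18 and 26. It also shares 1842 bases with the protein-coding gene AD000671.1 on the same strand, which had 0 counts in every library. How reads of shared bases were counted is not given in the sources used here, so the level of PSENEN is uncertain. The receptor protease ADAM10 fell by 0.19 on the log2 scale, and the gamma-secretase genes PSEN2, NCSTN, APH1A and APH1B and the protease ADAM17 did not pass.

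Of 8 tested genes that inhibit the receptor or take part in its turnover, 5 were lower and 1 was higher. Of all genes tested, 17.3% were lower and 19.3% higher. FBXW7, part of the ligase that marks the freed Notch fragment for degradation, had a log2 fold change of -0.40 (SE 0.12, edgeR adjusted p = 0.0075), which was -0.28 without siControl replicate 2 (adjusted p = 0.16) and did not pass with DESeq2 (adjusted p = 0.060). DTX3 of the Deltex family had 182 and 180 counts under siControl against 125 and 128 under siALKBH5, a log2 fold change of -0.56 (adjusted p = 0.0021 by edgeR). The ligase ITCH and the Deltex genes DTX3L and DTX4 were lower by edgeR at -0.18, -0.23 and -0.13, and DTX2 was higher at 0.22. The Numb genes NUMB and NUMBL, inhibitors of the receptor, did not pass the test.

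Of 7 nuclear coactivators other than MAML1, 3 were lower and 1 was higher, beside 17.3% and 19.3% of all genes tested. The Mastermind-like genes MAML3 and MAML2 had log2 fold changes of -0.62 and -0.22, and the acetyltransferase gene KAT2A of -0.35, while the acetyltransferase gene EP300 had 0.21. MAML3 had 57 to 104 counts per library and shares 23993 bases of its span with MGST2 on the opposite strand, which had 958 to 1293 counts and a log2 fold change of -0.33, so the reads of MAML3 are uncertain. Its call was lost without siALKBH5 replicate 2 (-0.53, adjusted p = 0.062 by edgeR) and with DESeq2 (adjusted p = 0.079). Of 13 corepressors, 3 were lower and 3 were higher, beside the same shares of all genes. TLE4, a Groucho-type corepressor that HES proteins recruit, had 656 counts in both siControl libraries and 531 and 508 in siALKBH5, a log2 fold change of -0.38 (SE 0.08, edgeR adjusted p = 1.5e-04). CIR1, a partner of RBPJ, had -0.26, which did not pass without siControl replicate 1 (-0.21, adjusted p = 0.15) or without siALKBH5 replicate 2 (-0.17, adjusted p = 0.21), by edgeR, or with DESeq2 (adjusted p = 0.11). The histone deacetylase genes HDAC2 and HDAC1 were lower at -0.17 and higher at 0.16 by edgeR, and the demethylase gene KDM5A was higher at 0.16.

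Of 8 genes of the HES and HEY family and other direct targets, 6 were tested. HES2 and NRARP were higher and 0 were lower by edgeR, beside 19.3% and 17.3% of all genes tested. HES2, whose promoter window does not hold TGGGAA, had 144.7 ± 2.66 CPM (SD, n = 2) in siControl and 170.5 ± 2.02 CPM (SD, n = 2) in siALKBH5. Its log2 change was 0.24 (SE 0.04, edgeR adjusted p = 2.0e-06), opposite in sign to that of HES1. The ratio of HES1 to HES2, per kilobase, was 2.21 and 2.08 in siControl and 1.45 and 1.44 in siALKBH5. NRARP, a Notch target that feeds back on the pathway, had 879 and 838 counts under siControl against 1163 and 860 under siALKBH5, with a log2 fold change of 0.19 (adjusted p = 0.037 by edgeR) and groups that overlapped on the CPM scale.

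HES4 and HES5, with the stretches printed above, had log2 fold changes of -0.17 and -0.26 that did not pass the test (adjusted p of 0.057 and 0.30 by edgeR). HES4 had 634 and 680 counts under siControl against 663 and 540 under siALKBH5, and it was called by edgeR with library size only (adjusted p = 0.032), with the replicate number as a block (adjusted p = 0.039) and without siALKBH5 replicate 1 (adjusted p = 0.044). HES5 overlaps AL139246.5 on the opposite strand, which had 53 to 69 counts. HES6 and HEY2 had log2 fold changes of -0.33 and -0.48 with adjusted p of 0.36 and 0.39 by edgeR, on 36 to 50 and 14 to 23 counts. HES7, with 4 and 6 counts under siControl against 19 and 6 under siALKBH5, and HEYL, with 1 count in siALKBH5 replicate 1 and 0 in the other libraries, were too low for the test. Of the family, HES1 was thus the gene that fell beyond the threshold by edgeR, and whether its change differs from those of HES4, HES5, HES6 and HEY2 was not tested.

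Keratinocyte genes that are placed downstream of Notch went both ways, with 3 higher and 3 lower of 6. Of all genes tested, 19.3% were higher and 17.3% lower. KRT1 and KRT10 encode the keratin pair of suprabasal cells. KRT1 had 873 and 1050 CPM on average in siControl and siALKBH5, a log2 fold change of 0.27 (adjusted p = 1.2e-12 by edgeR). KRT10, which overlaps TMEM99 on the opposite strand (592 to 730 counts), had 335 and 274 CPM, a log2 fold change of -0.29 (adjusted p = 2.6e-10 by edgeR). The genes of the pair therefore moved in opposite directions, and IVL, which encodes involucrin of the cornified envelope, was lower with 451 and 326 CPM and a log2 fold change of -0.47 (adjusted p = 2.1e-16 by edgeR). CDKN1A, the cell cycle inhibitor p21, was higher at 0.27 (adjusted p = 3.0e-08 by edgeR), and TP63, which encodes the p63 factor of basal cells, was lower at -0.091.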

How the data were processed

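Poly-A RNA of 4 HaCaT libraries, 2 siControl and 2 siALKBH5, was sequenced on a NovaSeq platform. The authors deposited 1 table per replicate with raw counts per gene, not normalized, and the listed gene length. Their processing notes name HISAT2 2.0.5, featureCounts 1.5.0-p3, DESeq2 1.20.0, CASAVA and hg38. The tables also hold FPKM, fold changes and p-values of the authors, which were not used here. All 58735 gene identifiers and coordinates are those of GENCODE 29 on GRCh38.

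Group differences were fitted on the counts in R 4.3.3 by the quasi-likelihood functions of edgeR 4.0.16, with filterByExpr, TMM scaling and no covariates, in code tested on simulated data. There, changes of genes with low counts were often missed, and the share of recovered genes that was asked for was lowered after the first runs fell short of it, so a gene with low counts that was not called may still differ. The study used DESeq2 with a minimum log2 change of 1. DESeq2 1.42.0 was an alternative here, and genes were called at an adjusted p under 0.05 with no minimum change. FPKM were recomputed from counts, gene length and library totals. The Notch genes and lists were chosen with earlier results of these data known. Named were the 10 genes, ALKBH5, NOTCH4, DLL3, DLL4, HES and HEY relatives, and up to 15 called pathway genes with a mean of at least 1 CPM and the largest change. Promoter sequences are from RefSeq. Depth was between 16017502 and 18837807 counts.

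Alternatives were other scalings and filters, DESeq2, the replicate number as a block, the fold threshold, and each library left out. Some genes of the pathway lists are counted but not reported by name here.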

Additional observations from a re-analysis of the deposited data

How the results depend on the processing

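NOTCH2, NOTCH3, HES1 and MAML1 kept their direction and their side of the threshold under all 10 alternatives that refit the counts, with log2 fold changes between 0.14 and 0.22, 0.26 and 0.30, -0.40 and -0.27, and -0.10 and -0.057. Among 30 genes followed, 18 did. NOTCH1 kept its direction, between 0.033 and 0.11. The number of lower Notch genes, 2, became 1 with DESeq2 and was between 1 and 2 with each library left out. The number of higher Notch genes, 3, became 2 with DESeq2, with library size only, without siALKBH5 replicate 1 and without siControl replicate 2. With a minimum log2 fold change of 1, 0 of the 10 Notch genes were lower and 0 higher, and 0 of the other pathway genes were lower and 0 higher, since no tested gene of either list changed that much with all libraries in the fit. Without siControl replicate 1, PSENEN was at -1.02. With each library left out, 15 to 19 pathway genes were lower and 10 to 15 higher, and with DESeq2 13 and 11. DESeq2 gave HEY2 no adjusted p.

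JAG1, JAG2, RBPJ and HEY1, which did not pass the test, changed sign with a library left out, with ranges from -0.031 to 0.019 for JAG1, -0.036 to 0.019 for JAG2, -0.11 to 0.22 for RBPJ and -0.12 to 0.20 for HEY1. Leaving out a library leaves 1 in its group, which is then assumed to vary like the other group.

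With the replicate block, 2 Notch genes were lower and 3 higher, as in the test without it, and 20 pathway genes were lower and 15 higher. Same-numbered libraries did not deviate together (correlation 0.034 across genes), so the number was not taken as a pairing. Over all genes the median log2 change was -0.0053 when scaled by DESeq2 and -0.030 by library size alone.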
